A study of Mus musculus with 8 samples.

Results

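The genes described here are 10 members of the ATM and ATR checkpoint pathways, found by symbol in a table of 32499 genes counted by RNA-seq in mouse neural progenitor cells. The ATM arm holds 2 of them, Atm and Chek2, and the ATR arm 8, Atr, Atrip, Topbp1, Clspn, Timeless, Tipin, Chek1 and Wee1. All 10 were in the table, all 10 were tested, and their counts per library lay between 104 and 7821. The cells came from the neural tubes of C57BL/6 embryos at embryonic day 14 and were sorted with NeuroFluor CDr3, a dye for neural progenitors. There were 4 libraries labelled 53BP1 KO (KO-labelled below) and 4 labelled as control. The embryos of the KO group carried a targeted allele, Trp53bp1tm1Jc, from the mother and a CRISPR in-frame deletion of the same locus from the father, and those of the control group were wild type, per the labels' protocols. An in-frame deletion can leave a transcript that still counts as the gene. The labels do not say which bases were deleted, whether embryos were pooled, or if cells were grown in medium after sorting. They do not say either that replicates came from separate embryos, so the p-values are about library-to-library spread, part of which may be technical.

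ATM and ATR are large related kinases that start the DNA damage checkpoint. ATM is switched on at double-strand breaks by the complex of Mre11, Rad50 and Nbn, and phosphorylates the kinase Chk2 (Chek2) and 53BP1, the product of the gene targeted here (Trp53bp1), which is bound to chromatin around the break. ATR sits with its partner ATRIP on single-stranded DNA coated by RPA at stalled replication forks, is switched on by TopBP1, and phosphorylates the kinase Chk1 (Chek1) with the help of the adaptor claspin (Clspn) and the fork proteins Timeless and Tipin. Chk1 and Wee1 then hold the cyclin-dependent kinases back, Chk1 by inactivating the Cdc25 phosphatases and Wee1 by phosphorylating the kinases themselves. In dividing neural progenitors the ATR arm also works in every unperturbed S phase.

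The libraries held between 11081419 and 24339621 counts. The count of Trp53bp1 did not separate the groups. It was 30.4, 33.8, 19.2 and 25.2 CPM (normalised counts, scaled to the TMM-adjusted library size) in KO-labelled libraries 1 to 4, against 27.2, 26.4, 26.9 and 26.6 CPM in controls 1 to 4. Its log2 fold change was 0.01 (edgeR adjusted p = 0.960, 95% interval -0.29 to 0.32). This level is no test of the labels, since the paternal deletion allele need not lower it. What the maternal targeted allele does to the count is not known here. The groups also differed in sex-linked RNA. Xist, the RNA of the inactive X chromosome, had 9 to 16 counts per KO-labelled library and 23853 to 26134 per control, and the Y-linked gene Ddx3y had 579 to 1064 per KO-labelled library and 0 in each control. Sex and genotype label therefore coincided in every library, and for each difference below the effects of genotype and sex cannot be told apart. The sort marker Fabp7 did not pass the test between the groups (log2 fold change 0.04, SE 0.13).

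Most of the checkpoint genes were less abundant in KO-labelled cells. Of the 10 members 8 fell, 0 rose and 2 did not pass the test (edgeR's quasi-likelihood test, Benjamini-Hochberg adjusted p under 0.05 over 15021 genes). Over all genes tested 13.9% fell and 16.1% rose. The median log2 fold change was -0.68 over the members and 0.00 over all genes tested. In the same 8 members every KO-labelled library lay below every control, as it did for 13.9% of all genes tested. Both genes of the ATM arm fell, with a median of -0.47, and 6 of 8 genes of the ATR arm, with a median of -0.71. The 2 members that did not pass were Atr and Atrip, the kinase at the head of the ATR arm and its partner. All 9 proliferation genes listed further down fell as well, with a median of -0.90. Fewer cells with an RNA and less of it per cell cannot be told apart in bulk libraries.

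**Figure D1:**
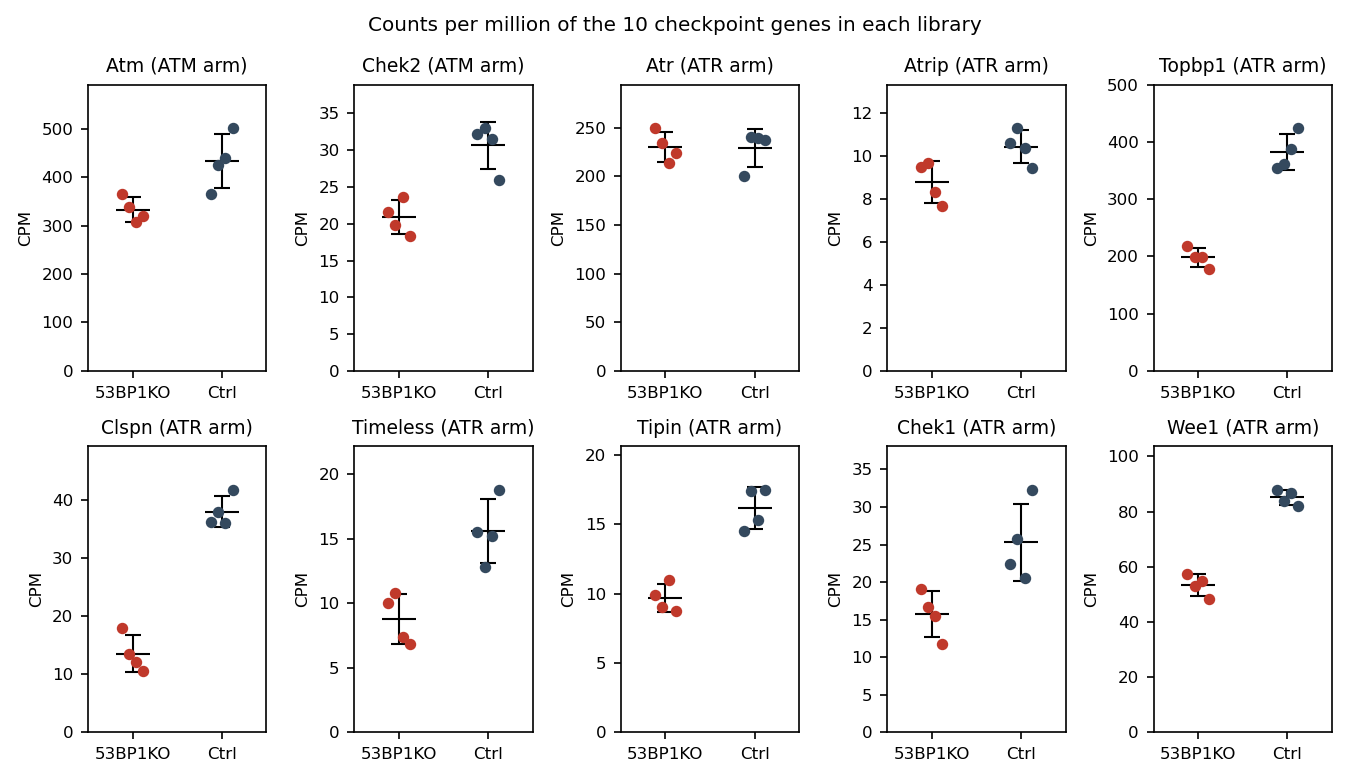
Normalised counts (CPM, y axis from 0) of the 10 checkpoint genes in each library, KO-labelled (red, left) and control (dark, right), with the group mean and SD (bar and whiskers, n = 4 each). The groups do not overlap in 8 genes, of which Atm has the narrowest gap, and overlap in Atr and Atrip.

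Of the 10 members 6 lie on chromosome 9 (Atm, Atr, Atrip, Chek1, Topbp1 and Tipin), which held 5.53% of the tested genes with a known chromosome. Of the 772 tested genes of that chromosome 118 fell, or 15.3%. The start regions of the members that moved and of those that did not are shown here for what they share in letters. RefSeq promoter windows of GRCm38, 250 bases before to 50 after a start, were found for 8 members; Tipin and Wee1 had none. Each window was searched on both strands for 4 E2F-type motifs (TTTCGCGC, TTTGGCGC, TTTCCCGC and TTTGCCGC), for CCAAT, and for TTTGAA and TTCGAA, the cell cycle element called CHR. None of the matches overlapped another. An E2F-type motif was found in 3 of the 8 windows, those of Topbp1, Clspn and Chek2, and in 2.26% of all 32851 windows. These are the 30-base sites, with the motif (in its reverse complement) in capitals. All 3 lie inside the annotated gene, past the first of its starts.
Topbp1, chr9:103305187-103305216, plus strand: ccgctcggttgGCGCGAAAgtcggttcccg
Clspn, chr4:126556990-126557019, plus strand: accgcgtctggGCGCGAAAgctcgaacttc
Chek2, chr5:110839820-110839849, plus strand: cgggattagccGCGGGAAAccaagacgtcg

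Topbp1 and Clspn hold the same 8 letters. Counted from the start used for the window, they lie before it in Topbp1 (-129 to -122) and after it in Clspn (21 to 28). The fold changes of these genes were the lowest of the members, as given further down. Whether the motif has a part in them was not tested. CCAAT was found in 4 windows (Clspn, Chek2, Atm and Atrip) and in 37.4% of all windows. It is shown in capitals, again as its reverse complement, for Clspn, Atm and Atrip, so that members that fell stand beside one that did not pass.
Clspn, chr4:126556890-126556949, plus strand: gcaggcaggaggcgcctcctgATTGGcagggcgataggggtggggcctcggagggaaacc
Atm, chr9:53536820-53536849, minus strand: gagggcaatcgccATTGGtgcgcactgcgc
Atrip, chr9:109074125-109074204, minus strand: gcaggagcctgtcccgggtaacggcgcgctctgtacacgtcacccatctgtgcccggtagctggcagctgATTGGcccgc

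The CHR form TTCGAA was found only in the window of Atr among the 8, and in 1.56% of all windows, and TTTGAA in 0 of the 8 and 17.9% of all. The windows of Chek1 and Timeless held none of the 7 motifs. That says only that these letters are not in these windows. The stretch of Atr with the motif in capitals and the 100 bases before the start of Chek1, which fell without a match, are given for comparison.
Atr, chr9:95857367-95857446, plus strand: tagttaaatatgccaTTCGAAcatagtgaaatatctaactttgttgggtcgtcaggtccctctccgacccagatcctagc
Chek1, chr9:36726659-36726758, minus strand: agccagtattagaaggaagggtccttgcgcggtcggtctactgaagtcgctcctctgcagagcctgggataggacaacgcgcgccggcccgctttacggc

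In the ATM arm, the decrease was moderate. Atm had 366, 338, 308 and 320.2 CPM in KO-labelled libraries 1 to 4, against 366, 424, 439.8 and 501 CPM in controls 1 to 4. The groups met almost, since KO-labelled 1 lay 0.0294 CPM below control 1. That gap is less than 3 counts are worth in KO-labelled 1 (0.148 CPM). The mean was 333 ± 25.3 CPM in the KO-labelled libraries and 433 ± 55.3 CPM in the controls (SD, n = 4 each), which gave a log2 fold change of -0.38 (edgeR adjusted p = 0.0120, SE 0.10). Chek2, the effector kinase of ATM, had 21.6, 19.9, 23.7 and 18.3 CPM in KO-labelled libraries 1 to 4, against 32.2, 33.0, 31.5 and 25.9 CPM in controls 1 to 4. Control 4 was lowest among the controls and still above every KO-labelled library. Chek2 fell by 0.56 on the log2 scale (edgeR adjusted p = 0.00219, SE 0.11), to 68.1% of the control level. Npat, a histone gene activator whose gene lies head to head with Atm (375 bases between the RefSeq starts, with the printed CCAAT site of Atm among them), averaged 201 ± 11.9 CPM in the KO-labelled libraries and 264 ± 18.2 CPM in the controls (log2 fold change -0.39, edgeR adjusted p = 0.00290, SE 0.08). The difference between the fold changes of the neighbours was not tested.

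At the head of the ATR arm, neither the kinase gene nor that of its partner passed the test. Atr had 249.5, 234, 214 and 224 CPM in KO-labelled libraries 1 to 4, against 200.1, 240.0, 239.9 and 237 CPM in controls 1 to 4. The groups overlapped, and control 1 was the lowest of all 8 libraries. The log2 fold change was 0.01 (edgeR adjusted p = 0.958, SE 0.09), with a 95% interval of -0.18 to 0.20. Atrip, which brings ATR to RPA, had 9.50, 9.67, 8.34 and 7.67 CPM in KO-labelled libraries 1 to 4, against 10.6, 11.3, 10.4 and 9.44 CPM in controls 1 to 4. KO-labelled 1 and 2 lay above control 4, so the groups overlapped. The log2 fold change of Atrip was -0.26 (edgeR adjusted p = 0.147, 95% interval -0.53 to 0.02), and it passed with limma voom and sample weights (-0.32, adjusted p = 0.0423). In the GENCODE annotation of GRCm38, Atrip shares 1147 exonic bases with Trex1 on the same strand. Trex1 had 0 counts in every library, and the sources used here do not say how shared bases were counted. Atr shares 726 exonic bases with 1700065D16Rik and 462 with Gm16794, both on the opposite strand. It also shares 178 with Gm24004 on the same strand. None of these symbols was among the genes counted, so what their reads add to the count of Atr is not known.

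The genes that link ATR to Chk1 had the lowest fold changes among the members. Clspn, the adaptor that presents Chk1 to ATR, had 18.0, 13.5, 12.1 and 10.6 CPM in KO-labelled libraries 1 to 4, against 36.3, 38.0, 36.0 and 41.8 CPM in controls 1 to 4. The highest KO-labelled library was 18.0 CPM below the lowest control. Clspn fell by 1.49 on the log2 scale (edgeR adjusted p = 3.74e-06, SE 0.14), to 35.6% of the control level, and 1.07% of the genes tested had a fold change as low or lower. Topbp1, the activator of ATR, had 219, 199, 199 and 178 CPM in KO-labelled libraries 1 to 4, against 354, 362, 388 and 424 CPM in controls 1 to 4. The gap between the groups was 135 CPM, several times the SD within the KO-labelled libraries (16.6 CPM) or the controls (31.6 CPM). Its log2 fold change was -0.94 (edgeR adjusted p = 4.22e-06, SE 0.09), which left 52.1% of the control level.

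Timeless and Tipin, the partners that travel with the replication fork and stabilise it, were both lower. Timeless had 9.99, 10.8, 7.38 and 6.88 CPM in KO-labelled libraries 1 to 4, against 15.5, 12.8, 15.2 and 18.8 CPM in controls 1 to 4. Tipin had 9.89, 9.06, 11.0 and 8.72 CPM in KO-labelled libraries 1 to 4, against 14.5, 17.4, 15.3 and 17.5 CPM in controls 1 to 4. In both genes each KO-labelled library was below each control, with KO-labelled 4 the lowest and control 4 the highest of the 8 libraries. The log2 fold change was -0.84 for Timeless (edgeR adjusted p = 0.00146, SE 0.16). That of Tipin was -0.74 (edgeR adjusted p = 3.72e-04, SE 0.12). GENCODE places 111 exonic bases of an opposite-strand gene, Gm26847, over Timeless, with 17 counts in all KO-labelled libraries and 26 in all controls.

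The kinases that act on the cell cycle engine also fell. Chek1 had 19.1, 16.7, 15.5 and 11.7 CPM in KO-labelled libraries 1 to 4, against 22.4, 25.8, 20.6 and 32.3 CPM in controls 1 to 4. It was among the most variable members within a group, with a coefficient of variation of 19.5% in the KO-labelled libraries and 20.5% in the controls. Its log2 fold change was -0.69 (edgeR adjusted p = 0.00575, SE 0.16, 95% interval -1.04 to -0.34). Wee1, the kinase that puts the inhibitory phosphate on Cdk1 and Cdk2, had 57.5, 53.1, 54.7 and 48.3 CPM in KO-labelled libraries 1 to 4, against 87.9, 83.7, 86.7 and 82.1 CPM in controls 1 to 4. It was among the steadiest, with a coefficient of variation of 7.18% in the KO-labelled libraries and 3.15% in the controls. Wee1 fell by 0.67 on the log2 scale (edgeR adjusted p = 5.02e-05, SE 0.09), to 62.7% of the control level.

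**Figure D2:**
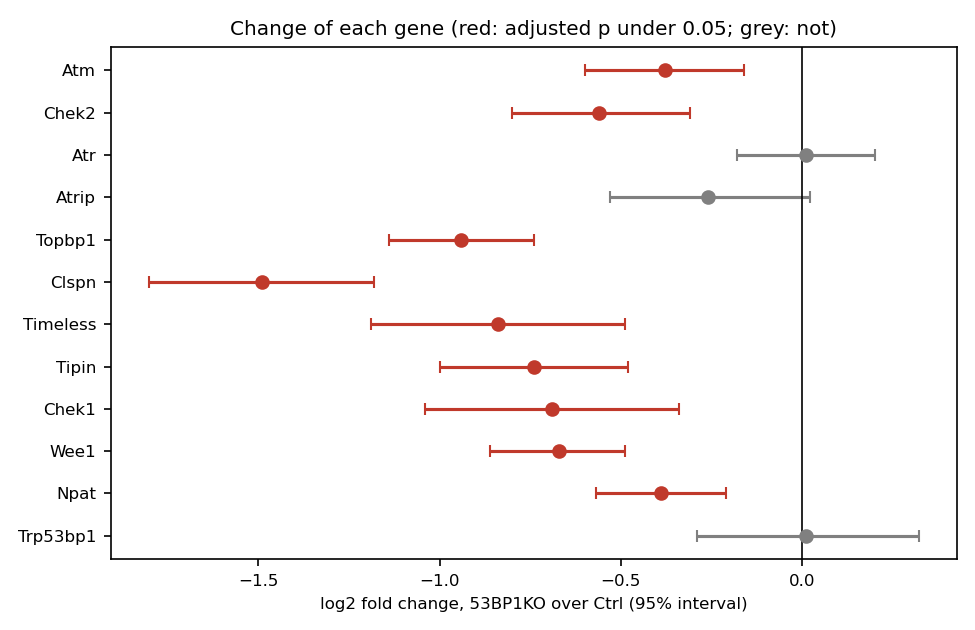
Log2 fold change, KO-labelled over control, of the 10 checkpoint genes, of Npat and of Trp53bp1, with 95% intervals from edgeR's quasi-likelihood test. The intervals of Atr, Atrip and Trp53bp1 include 0, and Clspn lies lowest at -1.49.

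Whether partners changed by the same factor was tested with the ratio of their counts within each library, which needs no scaling between libraries. For each of the 4 ratios an exact two-sided permutation test of 4 libraries against 4 was used, whose smallest possible p is 0.0286. Atr over Atm was 0.681, 0.692, 0.695 and 0.701 in KO-labelled libraries 1 to 4, against 0.546, 0.565, 0.545 and 0.473 in controls 1 to 4. The KO-labelled ratios were all higher and lay within a narrow range, and the mean log2 ratio was -0.53 ± 0.02 in the KO-labelled libraries and -0.91 ± 0.11 in the controls (SD, n = 4 each). The difference was 0.38 on the log2 scale, higher in 4 of 4 KO-labelled libraries, with the smallest p the test can give (exact p = 0.0286). It did not pass after adjustment over the 4 ratios (adjusted p = 0.114). A ratio at the smallest p cannot pass this adjustment unless others reach that p too. Not passing therefore says nothing about this ratio.

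The other 3 ratios overlapped between the groups. Atrip over Atr differed by -0.26 on the log2 scale, with -4.71 ± 0.11 in the KO-labelled libraries and -4.45 ± 0.18 in the controls (exact p = 0.0571, adjusted p = 0.114). Chek1 over Chek2 differed by -0.13 (exact p = 0.714, adjusted p = 0.800), with control 4 at a ratio of 1.25 and the other 7 libraries between 0.641 and 0.882, and without control 4 the difference was 0.08. Timeless over Tipin differed by -0.10 (exact p = 0.800, adjusted p = 0.800). With 4 libraries a group, these results do not show that the partners changed alike.

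**Figure D3:**
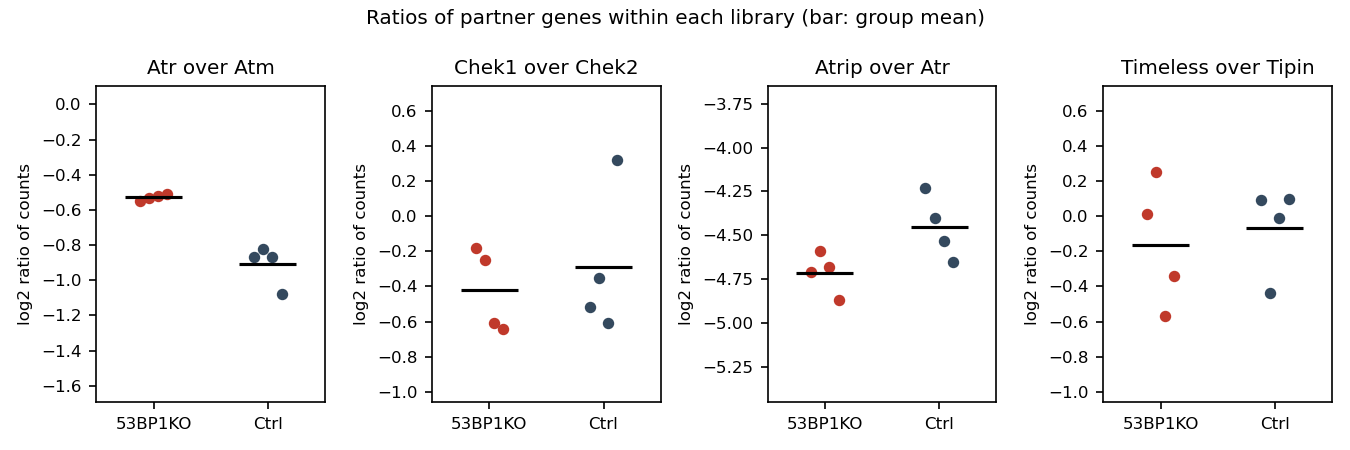
Log2 ratio of the counts of partner genes in each library (y axis, the same span in each panel), KO-labelled (red, left) and control (dark, right), with the group mean as a bar. The groups are apart for Atr over Atm and overlap for the other 3 ratios.

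Levels of different genes were compared only per length, as CPM per kilobase of the longest coding transcript in GENCODE. On this length Topbp1 was highest, with 38.0 ± 3.17 in the KO-labelled libraries and 73.1 ± 6.05 in the controls (SD, n = 4 each), followed by Atm with 33.9 ± 2.58 in the KO-labelled libraries and 44.1 ± 5.63 in the controls. The library ranges of Topbp1 and Atm overlapped in the KO-labelled group and were apart in the control group. Atr, Wee1 and Chek2 came next in both groups, with Atr at 28.5 ± 1.85 in the KO-labelled libraries and 28.3 ± 2.41 in the controls. The ranges of Atr and Wee1 overlapped in the controls and were apart in the KO-labelled libraries. Tipin, Chek1, Atrip, Clspn and Timeless followed in that order in the KO-labelled libraries, between 5.25 and 1.97 CPM per kilobase, and each overlapped the next. In the controls the order of the last 5 was Tipin, Clspn, Chek1, Atrip and Timeless, between 8.80 and 3.49. The order depends on the length used. With the length of all exons joined, Atm was highest in both groups, with 32.2 CPM per kilobase in the KO-labelled libraries and 41.9 in the controls, ahead of Topbp1 with 17.7 in the KO-labelled libraries and 34.0 in the controls. Atr was then at 9.76 in the KO-labelled libraries and 9.70 in the controls, below Wee1 in both. Clspn followed Chek1 in both groups on that length, so its different place between the groups was seen with the longest coding transcript only.

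Within each group the members often shared their highest and lowest libraries. KO-labelled 4 was the lowest of its group for 8 members, all but Atm and Atr, and KO-labelled 1 the highest for 6 (Atm, Atr, Chek1, Topbp1, Clspn and Wee1). Among the controls, control 4 was highest for 6 members (Atm, Chek1, Topbp1, Clspn, Timeless and Tipin) and lowest for Atrip, Chek2 and Wee1. The summed CPM of 9 proliferation genes (Mcm2 to Mcm7, Pcna, Mki67 and Top2a) followed the same libraries, with 2553 in KO-labelled 4, the lowest of its group, 3271 in KO-labelled 1, the highest of it, and 6333 in control 4, the highest control. These 9 genes all fell between the groups (median log2 fold change -0.90), and their sum did not overlap, at 2553 to 3271 CPM in the KO-labelled libraries and 5013 to 6333 CPM in the controls. The part of cell division in the values of the checkpoint genes was not tested.

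Around the ATM arm, 4 of 10 genes that act on or just after ATM fell and 0 rose, with a median log2 fold change of -0.30. They were Mdc1, the scaffold that binds phosphorylated H2AX (log2 fold change -0.67, SE 0.11), the nuclease Mre11a (-0.47, SE 0.10), the ubiquitin ligase Rnf168 (-0.37, SE 0.09), which makes the mark that 53BP1 reads, and Nbn (-0.34, SE 0.10). The adjusted p was 5.42e-04 for Mdc1, 0.00219 for Mre11a, 0.00746 for Rnf168 and 0.0235 for Nbn by edgeR. Trp53, the gene of p53, a target of ATM and Chk2, did not pass (-0.19, edgeR adjusted p = 0.390). The call of Nbn was lost without a filter on low counts and without KO-labelled 2, KO-labelled 4 or control 1 (adjusted p at most 0.0813). Of the 14 genes that load and feed ATR, 6 fell and 1 rose, with a median of -0.27. Rpa2, a subunit of the RPA coat, averaged 43.7 ± 3.69 CPM in the KO-labelled libraries and 99.5 ± 15.5 CPM in the controls (-1.18, edgeR adjusted p = 3.29e-06, SE 0.11). Rfc2 (-0.56, SE 0.12) and Rfc3 (-0.54, SE 0.12), subunits of the clamp loader, fell too. So did Rfc5 (-0.51, edgeR adjusted p = 0.0177), whose groups overlapped, Rpa1 (-0.42, adjusted p = 0.0079) and the clamp partner Rhno1 (-0.40, adjusted p = 0.0222). The call of Rfc5 was lost without KO-labelled 4 (adjusted p = 0.0632), that of Rpa1 without a filter on low counts (0.0597), and that of Rhno1 without a filter and without KO-labelled 1, KO-labelled 4 or control 2 (at most 0.0916). Etaa1, an activator of ATR that works apart from TopBP1, did not pass (-0.11, edgeR adjusted p = 0.466). Rad9b, a relative of the clamp subunit Rad9a, rose to 11.3 ± 1.33 CPM in the KO-labelled libraries, against 6.81 ± 2.52 CPM in the controls (0.73, edgeR adjusted p = 0.0204, SE 0.22), a call lost without KO-labelled 2 or control 3 (adjusted p at most 0.0539).

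Downstream, 9 of 11 genes of the cell cycle engine fell and 0 rose, with a median log2 fold change of -0.51. Ccne1, a cyclin of the entry into S phase, averaged 14.9 ± 1.26 CPM in the KO-labelled libraries and 42.5 ± 7.93 CPM in the controls (-1.51, edgeR adjusted p = 1.28e-06, SE 0.13). Cdc25a, the phosphatase that Chk1 marks for destruction, averaged 34.0 ± 1.28 CPM in the KO-labelled libraries and 76.2 ± 6.11 CPM in the controls (-1.17, edgeR adjusted p = 3.90e-07, SE 0.09). Cdk1, the kinase that Wee1 holds back (-0.81, SE 0.11), and its partner Ccna2 (-0.62, SE 0.11) were lower as well. The other 2 did not pass. Cdkn1a, the p53-induced inhibitor of these kinases, averaged 35.3 ± 2.02 CPM in the KO-labelled libraries and 47.9 ± 20.7 CPM in the controls (-0.44, edgeR adjusted p = 0.166), and the phosphatase gene Cdc25b had a log2 fold change of 0.20. The number of the 11 that fell was between 6 and 8 when single libraries were left out.

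Of 10 genes listed for the turnover and silencing of the checkpoint, deubiquitinases among them, 3 fell and 1 rose, with a median of -0.09. The Plk1 activator Bora (-0.64, edgeR adjusted p = 0.00413, SE 0.14), the deubiquitinase Usp28 (-0.54, SE 0.14, adjusted p = 0.0117) and the ligase subunit Cul1 (-0.33, SE 0.10, adjusted p = 0.0273) fell, and the kinase Plk3 rose to 4.15 ± 0.711 CPM in the KO-labelled libraries, against 2.71 ± 0.470 CPM in the controls (0.62, SE 0.20, adjusted p = 0.0289). The call of Cul1 was lost without a filter, with a replicate block and without KO-labelled 3, KO-labelled 4, control 2 or control 3, and that of Plk3 without KO-labelled 1, KO-labelled 4, control 1 or control 3 (adjusted p at most 0.165 for Cul1 and 0.109 for Plk3). Among 9 relatives of ATM and ATR and the chaperones of that kinase family, 1 fell and 0 rose, with a median of -0.01. The relatives Prkdc (log2 fold change 0.20), Mtor (-0.01), Smg1 (0.11) and Trrap (0.03) did not pass the test, with adjusted p between 0.118 and 0.958 by edgeR. The chaperone Ruvbl1 fell by 0.31 on the log2 scale (SE 0.10, adjusted p = 0.0260), a call lost without a filter on low counts and without KO-labelled 2, KO-labelled 4 or control 1 (adjusted p at most 0.155).

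**Figure D4:**
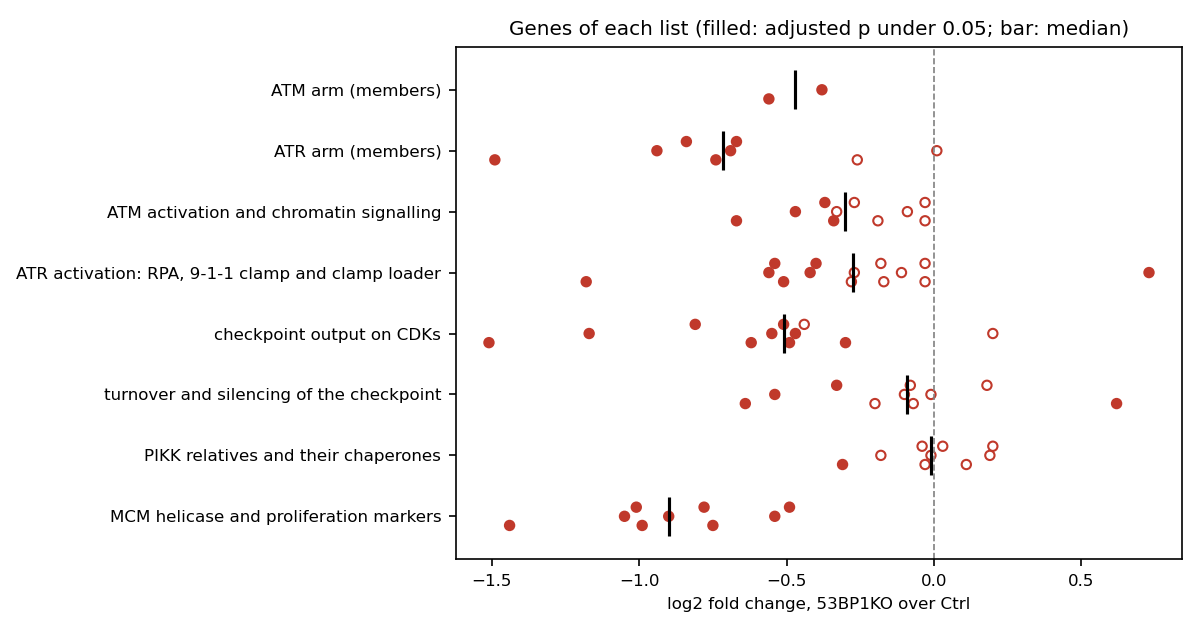
Log2 fold change, KO-labelled over control (x axis), of each gene in the ATM and ATR arms and in 6 lists around them, filled where the adjusted p is under 0.05, with the median of each list as a bar. The medians are -0.47 and -0.71 for the arms, -0.90 for the proliferation genes and -0.01 for the relatives of ATM and ATR.

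The genes whose profile was most like that of Atm, by the smallest root mean square difference of centred log2 CPM over the 8 libraries among 10559 genes, were Ranbp2 (0.0517), RP23-361O12.4 (0.0539) and Jmjd1c (0.0539). Ranbp2, a protein of the nuclear pore, had a log2 fold change of -0.32, RP23-361O12.4 of -0.34 (not passed, edgeR adjusted p = 0.0711) and Jmjd1c of -0.31. Those most like Chek1 were the helicase subunit Mcm3 (0.133), Epb41 (0.135) and the nuclear pore gene Nup155 (0.136), with log2 fold changes of -0.75, -0.72 and -0.79. The difference between the groups is part of these distances, so genes picked this way have close fold changes by construction. The distances to Atm were smaller than those to Chek1. The counts of Chek1 were lower (192 to 500 per library, against 3881 to 7821 for Atm). Whether the counts have a part in the distances was not tested.

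Markers of several cell types, those of the sorted progenitors among them, differed between the groups too. Of 6 astrocyte markers 5 rose and 0 fell, and their summed level was 589 to 719.9 CPM in the KO-labelled libraries and 208 to 300.3 CPM in the controls. Of 9 progenitor markers 5 rose and 2 fell, with sums of 9046 to 12471 CPM in the KO-labelled libraries and 9539.5 to 11626 CPM in the controls. Of 8 neuron markers 2 rose and 2 fell (368 to 445 CPM in the KO-labelled libraries, 399 to 523 CPM in the controls), and of 6 oligodendrocyte lineage markers 3 rose and 2 fell (1214 to 1406 CPM in the KO-labelled libraries, 1407 to 1531 CPM in the controls). Mesenchymal markers summed to 11.4 to 14.3 CPM in the KO-labelled libraries and 29.4 to 77.5 CPM in the controls, with 1 rising and 3 falling of 5 tested. Endothelial markers (2.05 to 5.05 CPM in the KO-labelled libraries, 5.81 to 12.0 CPM in the controls), microglial markers (0.541 to 3.40 CPM in the KO-labelled libraries, 1.70 to 4.99 CPM in the controls) and erythroid markers (1.08 to 2.25 CPM in the KO-labelled libraries, 0.822 to 1.95 CPM in the controls) were low. Of 2 endothelial markers tested 1 fell, and the single microglial and the single erythroid gene tested did not pass. Cdh5, Tek and Cldn5 of the endothelial list and Csf1r, Aif1, Cx3cr1, Tyrobp and C1qa of the microglial list were under 1 CPM in every library, as were Hbb-bs and Alas2 of the erythroid list, and the globin genes Hba-a1 and Hba-a2 were at 0 in every library. The part of these cells in the values of the checkpoint genes was not tested.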

How the data were processed

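Total RNA of sorted neural progenitor cells was made into libraries with a stranded kit and sequenced from paired ends on either of a pair of HiSeq models, per the labels' protocols. The authors deposited raw read counts, as whole numbers, for each gene symbol. HTSeq 0.6.1p1, CASAVA, mm9 and NCBIM37 are named, per the submitters' processing notes. The sources used here give no aligner and no strand setting, so reads of overlapping genes on opposite strands may not be told apart. The 4 KO-labelled and 4 control libraries were matched to columns by title. No pair of libraries of a group agreed within sampling noise (chi-square per degree of freedom 4.45 to 36.2). Controls 2 and 3 were the closest pair, at 4.45, and the next, KO-labelled 2 and 4, was at 13.8.

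In R 4.3.3, edgeR 4.0.16 was used for filtering (filterByExpr), TMM factors and quasi-likelihood F tests, adjusted over 15021 genes. A count of 3, taken as a floor, was worth between 0.126 and 0.261 CPM. Counting error grows with the count, so this floor does not measure it for genes with high counts. The SE is the log2 fold change divided by the square root of F. Ratios had 0.5 counts added. On simulated counts for this comparison 199 of 14743 genes were changed. A 1.5-fold change was recovered in 51.5% and a 2-fold change in 87.8% of cases, and 8.61% of the calls were false. In the data 4499 genes were called, far more than were changed there, so these shares may not hold for the data. Alternatives were DESeq2 1.42.0, limma 3.58.1 voom, other scalings, filters and dispersions, a replicate block and leaving out each library. Chromosomes, lengths and promoter sequences came from RefSeq and GENCODE vM21 tables of GRCm38, matched by symbol, another build than that of the counts.

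The members and the lists were chosen with earlier results of these data known. By rule the text names all members, Trp53bp1, Npat, and up to 4 genes past the threshold per list by size of change. The rule also takes in the 3 profiles most like Atm and Chek1. Fabp7, Xist, Ddx3y, Trex1, Gm26847, the genes that overlap Atr, the globins and the relatives of ATM and ATR stand outside that rule. So do Cdkn1a, Cdc25b, Trp53, Etaa1, Rfc5, Rpa1, Rhno1 and the low cell type markers. A planned count of kinase target sites in the proteins was not made.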

Additional observations from a re-analysis of the deposited data

Results flagged for a closer look

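Among 30 sets of 4 libraries, made of each member, Trp53bp1 and each ratio in either group, 1 library stood apart by the size of its gap to the rest relative to the range. Atr in control 1 was at 200.1 CPM, with the other controls between 237 and 240.0 CPM, a gap of 0.931 of the range, above the 95% limit of Dixon's test for 4 values. Chance marks about 5% of such sets. Without control 1 the log2 fold change of Atr was -0.05 (adjusted p = 0.686 by edgeR).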

How the results depend on the processing

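Each member's result was recomputed under 16 alternatives. The 8 members that fell did so under each of them, with log2 fold changes between -1.66 and -1.39 for Clspn, -0.98 and -0.87 for Topbp1, and -0.45 and -0.31 for Atm, whose adjusted p ranged from 0.00160 to 0.0411. Atr passed under none (-0.05 to 0.08, adjusted p 0.686 to 0.998). Atrip ranged from -0.32 to -0.19 (adjusted p 0.0423 to 0.499) and passed with voom alone. Voom also gave 2 rises in the turnover and silencing list and 1 among the relatives and chaperones. Without a filter on low counts 0 of the relatives and chaperones fell, and the median log2 fold change of all genes was -0.13. Leaving out single libraries gave between 0 and 1 rises among the genes that load ATR, and between 0 and 1 in the turnover and silencing list. Among the relatives and chaperones it gave between 0 and 1 rises and between 0 and 1 falls. The E2F-type motif TTTCGCGC was in 1 member window when the bases after the start were left out. The causes were not tested. The log2 difference of Atr over Atm ranged from 0.33 to 0.41 and that of Atrip over Atr from -0.33 to -0.19. Those of Chek1 over Chek2 (-0.23 to 0.08) and Timeless over Tipin (-0.23 to 0.04) took either sign.

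The replicate numbers did not pair the libraries throughout. Same-numbered libraries deviated from their group means with correlations of 0.254, 0.279, -0.158 and 0.00987 across genes. KO-labelled 1 and 2 were most like the control of the same number, and KO-labelled 3 and 4 were more like another. With the replicate block, 1940 genes fell and 2237 rose, against 2087 and 2412 without it, 7 of the 11 cell cycle genes fell, the call of Cul1 was lost, and the members' calls were those of the report.

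Sex and genotype label coincide, so no setting separates them. On simulated counts 51.5% of the 1.5-fold changes were recovered. A change as small as that of Atrip, to 83.7% of the control level, was not simulated. How often such a change would be missed is not known.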
